A study of Mus musculus with 12 samples.

Results

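The 10 heat shock chaperone genes described here are Hspa1a, Hspa1b, Hspa8, Hspa5, Hsph1, Dnajb1, Hsp90aa1, Hspd1, Hspe1 and Bag3, out of 46103 genes listed after summing features that the files give as numbered copies. They were chosen by name with their values in these libraries already known, so their levels and differences are a description. Counts of members that pass the fit over all genes stand beside the share of all genes that pass, and nothing is read from them. RNA was sequenced from 12 libraries of 100 sorted cells each, with 3 libraries in each of 4 groups. The cells came from a mouse model of chronic myeloid leukemia (CML), in which bone marrow cells of 5-fluorouracil-treated G0M mice were given human BCR-ABL1 by a retrovirus with a green fluorescent reporter and transplanted into lethally irradiated C57BL/6 mice. G0M mice carry a Cre-inducible fusion of mVenus and p27K-, a p27 mutant that does not inhibit its kinases, in the Rosa26 locus, and Vav1-Cre switches it on in blood cells. The fusion protein marks cells in the G0 phase. All 4 groups were BCR-ABL1+ cells of the LSK gate (lineage-negative, Sca1-positive, c-Kit-positive) that carried CD27, taken from bone marrow and spleen. DP cells were G0M+ and SP cells G0M− after vehicle, and IMDP cells were G0M+ and IMSP cells G0M− after daily gavage with imatinib, which blocks the BCR-ABL1 kinase. The labels do not say which libraries came from which mice, so p-values measure only the spread between these libraries.

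Chaperones bind unfolded stretches of other proteins and help them to fold, to assemble or to be degraded. HSP70 proteins do so in cycles driven by ATP, in which J proteins deliver the client and nucleotide exchange factors release it, while HSP90 acts on clients that are closer to their final form, such as kinases. BCR-ABL1 is a well known HSP90 client. When unfolded protein builds up, heat shock factor 1 (HSF1) binds inverted repeats of the unit GAA in promoters of the cytosolic heat shock genes, and a separate pathway, the unfolded protein response, acts on chaperone genes of the endoplasmic reticulum.

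The members fall into 4 roles. Hspa1a and Hspa1b encode the stress-inducible HSP70, Dnajb1 its J protein, Hsph1 the exchange factor HSP110, and Bag3 an exchange factor that links HSP70 to autophagy. Hspa8 encodes the constitutive HSP70 (HSC70) and Hsp90aa1 the inducible form of cytosolic HSP90. Hspa5 encodes BiP, the HSP70 of the endoplasmic reticulum. Hspd1 and Hspe1 encode HSP60 and HSP10, which together form the folding chamber of the mitochondrial matrix.

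The 10 genes are given by their spans in GENCODE M21 (GRCm38), in which some transcripts begin at other bases than in RefSeq. Hspa1a (chr17:34969190-34972156, minus strand) and Hspa1b (chr17:34956436-34959238, minus strand) are neighbours with near-identical sequence. Hspd1 (chr1:55077835-55088243, minus strand) and Hspe1 (chr1:55088132-55091307, plus strand) lie head to head. Promoter windows from RefSeq (GRCm38.p6, 300 bases around the start) matched 8 of the 10 members, and those of Hspa8 and Hsp90aa1 were not in the table. The windows were searched on both strands for 2 inverted units (GAANNTTC or TTCNNGAA), for 3 (GAANNTTCNNGAA or TTCNNGAANNTTC), which contain the shorter motif, and for the endoplasmic reticulum stress element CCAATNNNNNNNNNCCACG. The run of 3 units was found in 3 of the 8 members (Hspd1, Hspe1 and Hsph1) and in 0.603% of all 32851 windows. At least 2 units were found in 6 of the 8, with Hspa1a, Hspa1b and Bag3 in addition, and in 15.1% of all windows. The stress element was found in Hspa5 and in 0.119% of all windows. A match describes these letters only. The stretches shown next are those of Hspd1 with Hspe1, of Hspa1a, of Hspa1b and of Hspa5, with the motif printed in capitals. The motifs of Hsph1 and Bag3 are not shown.
Between the Hspd1 and Hspe1 starts, chr1:55087933-55088147, plus strand: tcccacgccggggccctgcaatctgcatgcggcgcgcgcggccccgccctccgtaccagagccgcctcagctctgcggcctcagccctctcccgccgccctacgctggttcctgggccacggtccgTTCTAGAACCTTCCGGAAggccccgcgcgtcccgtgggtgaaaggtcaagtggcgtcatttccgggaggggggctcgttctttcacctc
Hspa1a upstream of its start, chr17:34972157-34972306, minus strand: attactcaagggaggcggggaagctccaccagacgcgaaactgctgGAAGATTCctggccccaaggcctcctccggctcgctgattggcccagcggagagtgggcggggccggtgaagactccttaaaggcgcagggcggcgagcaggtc
Hspa1b upstream of its start, chr17:34959239-34959388, minus strand: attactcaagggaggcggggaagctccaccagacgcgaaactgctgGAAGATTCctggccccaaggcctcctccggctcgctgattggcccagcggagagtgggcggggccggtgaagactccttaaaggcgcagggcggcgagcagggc
Hspa5 upstream of its start, chr2:34771940-34772089, plus strand: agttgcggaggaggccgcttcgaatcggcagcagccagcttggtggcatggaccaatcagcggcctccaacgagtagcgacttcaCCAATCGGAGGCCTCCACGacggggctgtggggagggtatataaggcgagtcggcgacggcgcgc
The 215 bases between the Hspd1 and Hspe1 starts hold a single stretch of overlapping 3-unit runs, which is the same DNA for both genes. It begins 89 bases before the Hspe1 start and, read on the other strand, 144 bases before the Hspd1 start. The Hspa1a and Hspa1b stretches are identical at 149 of 150 bases, and both hold a pair of inverted units from base -104 to base -97. In Hspa5 the stress element runs from base -65 to base -47.

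Expression was deposited as RPKM, in which reads are divided by transcript length and library total, so that levels can be compared between genes. These totals came to 11.4 M to 20.6 M reads, of which 25.2% to 36.1% lay on listed features. The RPKM summed over all features was lowest in IMDP cells, at 103547, 82832 and 88824 in replicates 1 to 3. In the other libraries it was 105253 to 133620, so a level in IMDP cells is read beside the median of all genes and the scalings given below. Hspa8 had the highest level of the 10, with a mean of 534 RPKM over the 12 libraries, and ranked number 7 of the 10072 tested genes, which had to reach 1 RPKM in 3 or more libraries. Hsp90aa1 followed at 168, Hspa5 at 110, Hspd1 at 62.0, Hspe1 at 33.1, Hsph1 at 23.1, Dnajb1 at 9.95, Hspa1b at 6.05, Bag3 at 2.39 and Hspa1a at 1.79 RPKM. All 10 passed this filter, Hspa1a and Hspa1b largely through the vehicle libraries. Imatinib libraries have library numbers 1 to 6 and vehicle libraries 7 to 12, so treatment and library number cannot be told apart. In bulk samples, fewer cells that express a gene and less RNA per cell cannot be told apart either.

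**Figure D1:**
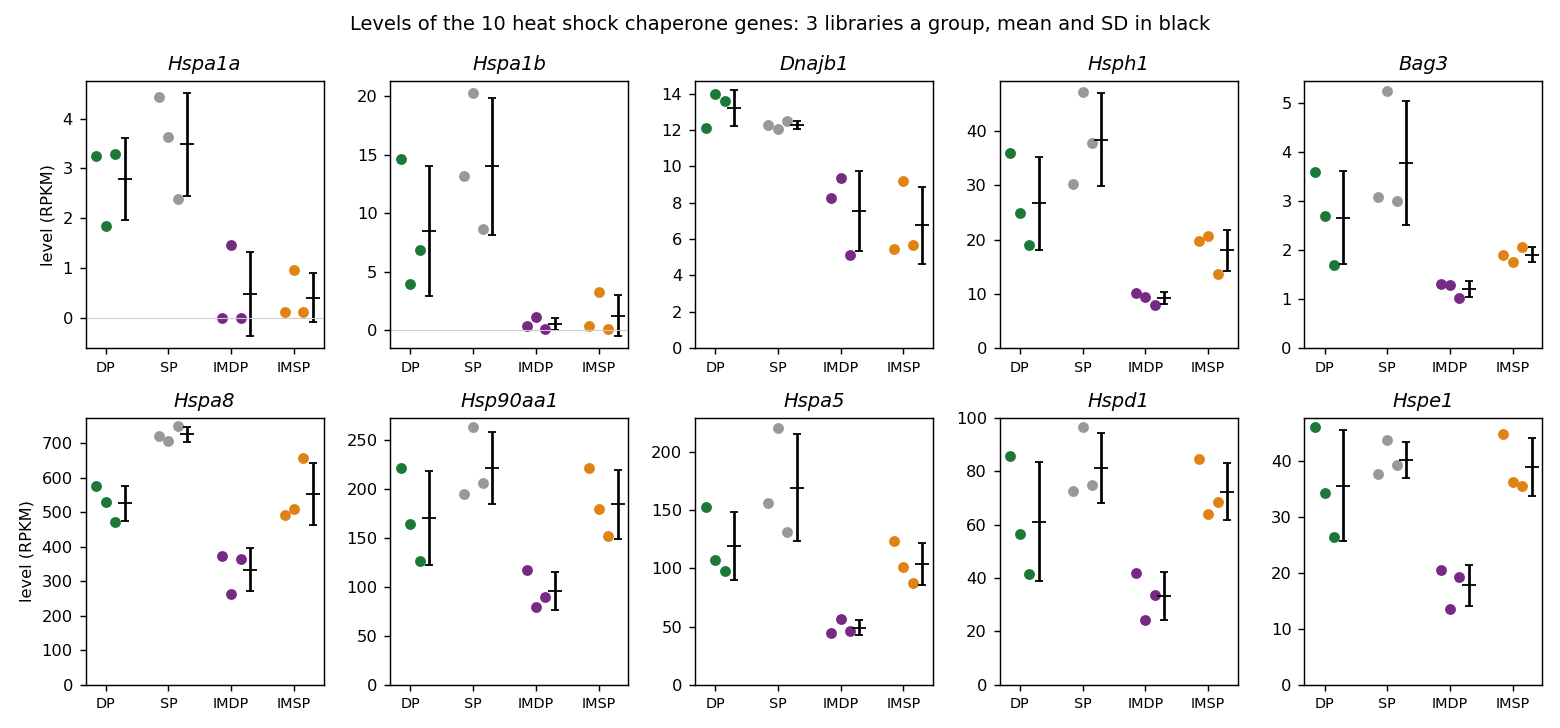
Level of each of the 10 genes in RPKM (vertical axes, linear, each panel on its own scale) in the 3 libraries of each group, left to right replicates 1 to 3, with the group mean and SD in black. Hspa1a, Hspa1b and Dnajb1 lie lower in all 6 imatinib libraries than in any vehicle library, while the lower row has its lowest mean in IMDP cells and IMSP values near or within the vehicle range.

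The stress-inducible genes Hspa1a and Hspa1b were 5.72 to 16.8 times lower in mean RPKM in imatinib than in vehicle cells of the same population. In DP cells Hspa1a stood at 3.24, 1.85 and 3.29 RPKM in replicates 1 to 3, in SP cells at 4.43, 3.62 and 2.39, in IMDP cells at 0, 1.47 and 0, and in IMSP cells at 0.122, 0.975 and 0.133. The reads behind these values were 81 to 253 per vehicle library and 0 to 61 per imatinib library, and the 0 reads of IMDP 1 and IMDP 3 allow up to 0.083 and 0.0633 RPKM (3 reads, counting error only). Thus Hspa1a was read in every vehicle library, and in IMDP cells in the library IMDP 2 alone. Hspa1b stood at 14.6, 3.91 and 6.86 RPKM in DP, at 13.1, 20.2 and 8.62 in SP, at 0.331, 1.08 and 0.105 in IMDP and at 0.344, 3.22 and 0.106 in IMSP cells. The highest imatinib library, IMSP 2, stayed below the lowest vehicle library, DP 2. On the scale of log2(RPKM + 0.1), which understates the change of low genes, the difference between IMDP and DP cells was -3.49 ± 0.94 (SE) for Hspa1a and -3.98 ± 0.91 for Hspa1b. Between IMSP and SP cells it was -3.19 ± 0.94 and -4.31 ± 0.91. Between the 2 populations of the same treatment, the values overlapped for both genes.

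The 2 imatinib libraries with the most Hspa1a and Hspa1b, IMDP 2 and IMSP 2, have the neighbouring library numbers 4 and 3. Their summed Hspa1a and Hspa1b level was 2.54 and 4.20 RPKM, against 0.105 to 0.466 RPKM in the other 4 imatinib libraries and 5.76 to 23.9 RPKM in the vehicle libraries. Without these libraries, an alternative chosen after seeing the data, the log2 differences of Hspa1b were larger, at -4.81 in IMDP against DP and -5.46 in IMSP against SP cells. In IMDP 2, 57.5% of the Hspa1a and Hspa1b reads lay on Hspa1a (61 of 106 reads), whereas in the vehicle libraries the share was 15.1% to 32.3%. Of the other imatinib libraries none had over 134 such reads, and IMSP 3 had 9, of which 5 lay on Hspa1a. The transcripts are so alike that reads may be split between them, and the files list each gene as 4 copies of which 2 share nearly all reads, so their sum is less open to this than either value.

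Set beside Hspa8, the inducible HSP70 transcripts were a minor part of cytosolic HSP70. Hspa1a and Hspa1b made up 1.08% to 3.27% of the summed Hspa1a, Hspa1b and Hspa8 level in the 6 vehicle libraries and 0.0289% to 0.96% in the 6 imatinib libraries. In this share too, the treatments did not overlap, and IMDP 2 and IMSP 2 were the highest imatinib libraries.

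Dnajb1, which encodes the J protein of inducible HSP70, was lower with imatinib in both populations, with overlapping values in G0M+ and G0M− cells. It stood at 12.1, 14.0 and 13.6 RPKM in DP, at 12.3, 12.1 and 12.5 in SP, at 8.23, 9.33 and 5.10 in IMDP and at 5.43, 9.19 and 5.65 in IMSP cells. All 6 imatinib libraries lay below all 6 vehicle libraries. The log2 difference was -0.84 ± 0.23 (SE) in IMDP against DP and -0.89 ± 0.23 in IMSP against SP cells, and it was 0.10 in DP against SP and 0.16 in IMDP against IMSP cells. The other 9 members had negative log2 differences in both population comparisons, although the mean RPKM of Hspa1a, listed at 0 in 2 IMDP libraries, was higher in IMDP (0.488) than in IMSP cells (0.41).

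Hsph1 and Bag3 were lower with imatinib in both populations, and lower in IMDP than in IMSP cells, each time without overlap. Hsph1, the HSP110 gene, stood at 36.0, 25.0 and 19.1 RPKM in DP, at 30.3, 47.3 and 37.8 in SP, at 10.1, 9.45 and 7.94 in IMDP and at 19.7, 20.7 and 13.8 in IMSP cells. The IMDP libraries were the lowest 3 of the 12, and the DP and IMSP libraries overlapped. Bag3 had 3.59, 2.71 and 1.69 RPKM in DP, 3.09, 5.25 and 3.01 in SP, 1.31, 1.30 and 1.02 in IMDP and 1.91, 1.76 and 2.06 in IMSP cells, with its group means in the same order. The log2 differences in IMDP against DP cells were -1.49 ± 0.24 for Hsph1 and -1.02 ± 0.28 for Bag3, and those in IMSP against SP cells -1.09 ± 0.24 and -0.90 ± 0.28.

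The abundant cytosolic genes Hspa8 and Hsp90aa1 differed less between treatments than Hspa1a and Hspa1b did, and had their lowest levels in IMDP cells. Hspa8, encoding HSC70, stood at 576, 528 and 472 RPKM in DP, at 720, 706 and 749 in SP, at 374, 262 and 364 in IMDP and at 492, 510 and 656 in IMSP cells. Its groups ran from SP to IMSP, DP and IMDP cells, and only IMSP and DP cells overlapped. Hsp90aa1 stood at 221, 164 and 126 RPKM in DP, at 194, 263 and 205 in SP, at 117, 79.6 and 89.5 in IMDP and at 221, 179 and 152 in IMSP cells, with the IMDP libraries below all others. The log2 difference was -0.67 ± 0.16 for Hspa8 and -0.81 ± 0.22 for Hsp90aa1 in IMDP against DP cells, and -0.40 ± 0.16 and -0.27 ± 0.22 in IMSP against SP cells.

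Hspa5, encoding BiP, had its group means in the same order as Hsph1 and Bag3, from SP to DP, IMSP and IMDP cells. It stood at 153, 107 and 97.8 RPKM in DP, at 156, 220 and 131 in SP, at 44.6, 56.5 and 46.3 in IMDP and at 123, 101 and 87.5 in IMSP cells. The IMDP mean was 2.43 times below the DP mean and 2.12 times below the IMSP mean, with no overlap in either comparison, and IMSP was 1.63 times below SP without overlap. Mpo, a granule gene of neutrophil progenitors named after its values were seen, was highest in the same replicate as Hspa5 in DP (766 RPKM in DP 1), SP (1389 in SP 2) and IMSP cells (1262 in IMSP 1), though not in IMDP cells, where IMDP 2 had the most Hspa5 and the least Mpo (40.2). Mpo was picked from 7 neutrophil markers, and the others are not set beside Hspa5 by replicate here. In IMSP against SP cells the log2 difference was 0.27 ± 0.98 (SE) for Mpo, -0.15 ± 1.26 for Elane and -2.72 ± 1.33 for S100a8, beside -0.68 ± 0.22 for Hspa5. The part of Mpo-expressing cells in the Hspa5 values was not tested.

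The mitochondrial pair Hspd1 and Hspe1 was low in IMDP cells and near the vehicle level in IMSP cells. Hspd1 stood at 85.6, 56.3 and 41.5 RPKM in DP, at 72.4, 96.4 and 75.0 in SP, at 42.0, 24.3 and 33.5 in IMDP and at 84.5, 64.1 and 68.4 in IMSP cells. Hspe1 stood at 46.1, 34.2 and 26.3 in DP, at 37.6, 43.8 and 39.2 in SP, at 20.5, 13.6 and 19.3 in IMDP and at 44.8, 36.2 and 35.5 in IMSP cells. IMSP and SP cells overlapped for both genes, with log2 differences of -0.17 ± 0.26 and -0.05 ± 0.21. Between IMDP and DP cells the differences were -0.85 ± 0.26 for Hspd1, whose highest IMDP library (42.0) overlapped the lowest DP library (41.5), and -0.98 ± 0.21 for Hspe1, which did not overlap. The difference between these effects passed the test for neither gene. The ratio of Hspd1 to Hspe1 stayed between 1.58 and 2.20 in the 12 libraries while the level of Hspd1 ran from 24.3 to 96.4 RPKM. Both genes share the divergent promoter shown above and their annotated ends overlap, and all pseudogenes that the annotation names after them (5 of Hspd1, 6 of Hspe1) are listed at 0.

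**Figure D2:**
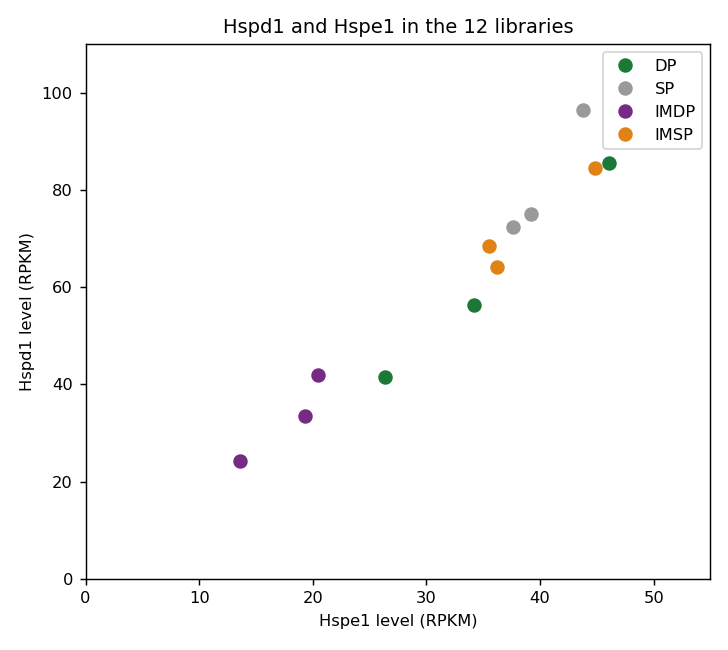
Level of Hspd1 (vertical axis, RPKM) against that of Hspe1 (horizontal axis, RPKM) in the 12 libraries, 1 point a library, colored by group. The points lie close to a line through the origin, with a ratio of 1.58 to 2.20, and the IMDP libraries are at its lower end.

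In IMDP against DP cells all 10 log2 differences were negative, from -3.98 to -0.67, and the median of the 10 stood at -0.83 relative to that of all tested genes (-0.17). The limma test on log2(RPKM + 0.1) passed 2 of the 10 (Hspa5 and Hsph1) at a Benjamini-Hochberg adjusted p under 0.05, beside 0.367% of all tested genes, and 9 of the 10 did not overlap in the lower direction, beside 19.0% of all genes. Both calls ended with limma-voom, with either scaling described next and with a fit of only the 2 groups compared. They also ended when DP 1, DP 2, SP 1, IMDP 3, IMSP 1 or IMSP 3 was left out. Without library numbers 3 and 4, Hspa1a and Hspa1b passed in place of Hspa5 and Hsph1, beside 0.328% of all genes. In IMSP against SP cells all 10 differences were negative too, from -4.31 to -0.05, with a median of -0.79 beside 0.08 over all genes. There 0 of 10 passed, as did 0.0% of all genes, by limma and by limma-voom on the recovered reads. At an unadjusted p under 0.05 there were 7 members and 8.39% of all genes, and 7 of 10 did not overlap, beside 2.72% of all genes. With the libraries scaled to the same median or the same sum, which moved the median of all genes in IMDP against DP cells to -0.02 or 0.13, all 10 members stayed negative in both comparisons. The interaction of population and treatment passed in 0 of the 10 and in 0.0% of all genes, by limma and limma-voom, with 1 member (Hspe1) and 9.30% of all genes at an unadjusted p under 0.05.

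Averaged over both populations, a comparison added after seeing the data, imatinib against vehicle passed in 6 members, all lower (Hspa1a, Hspa1b, Hspa5, Hsph1, Dnajb1 and Bag3), beside 0.854% of all tested genes. Of these, Hspa1a and Hspa1b met the filter through vehicle libraries, where they are high. All 6 imatinib libraries lay below all 6 vehicle libraries for 3 members, beside 0.635% of all genes. The count of 6 passing members rested on single libraries, with 1 member left without SP 1 or without IMDP 3, 2 without DP 2, IMSP 1 or IMSP 3, and 3 without DP 1, SP 2, SP 3 or IMDP 1. The share of all genes passing was 0.119% to 1.42% with a library left out.

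In DP against SP cells 9 of 10 members were lower in DP, with a median log2 difference of -0.47 beside -0.02 over all genes, and 0 of 10 passed (limma and limma-voom), beside 2.26% of all genes. At an unadjusted p under 0.05 there were 3 members and 13.2% of all genes. Hspa8 alone did not overlap, beside 12.7% of all genes lower in DP without overlap. In IMDP against IMSP cells 9 of 10 were lower, with a median of -0.84 beside -0.25 over all genes, and 6 passed, all lower (Hspa8, Hspa5, Hsph1, Hsp90aa1, Hspd1 and Hspe1), beside 25.6% of all genes. Of the 10, 7 lay lower without overlap, beside 32.8% of all genes. Without IMSP 1, 3 passed (Hspa8, Hspa5 and Hspe1), beside 8.96% of all genes. Scaling to the same median or sum moved the median of all genes to 0.02 or 0.16, left 9 of 10 members lower and ended the calls of Hspa8 and Hsph1. Without IMDP 3 or without IMSP 2, 7 of 10 were lower. Neighbouring library numbers pair each G0M+ library with a G0M− library of the same treatment, and 7 members were lower in the G0M+ library in 6 of 6 such pairs (Hspa1b, Hspa8, Hspa5, Hsph1, Hsp90aa1, Hspd1 and Bag3), as were 24.9% of all tested genes. With these pairs as a block, 4 members passed in DP against SP cells (Hspa8, Hspa5, Hsph1 and Hsp90aa1), all lower in DP, beside 9.73% of all genes in either direction. In IMDP against IMSP cells Bag3 passed in addition to the 6, beside 44.1% of all genes. Expression of 8 proliferation genes moved with the population as well, with a summed level of 139 to 189 RPKM in DP, 294 to 327 in SP, 82.6 to 146 in IMDP and 313 to 388 in IMSP cells. Its part in the chaperone values was not tested.

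**Figure D3:**
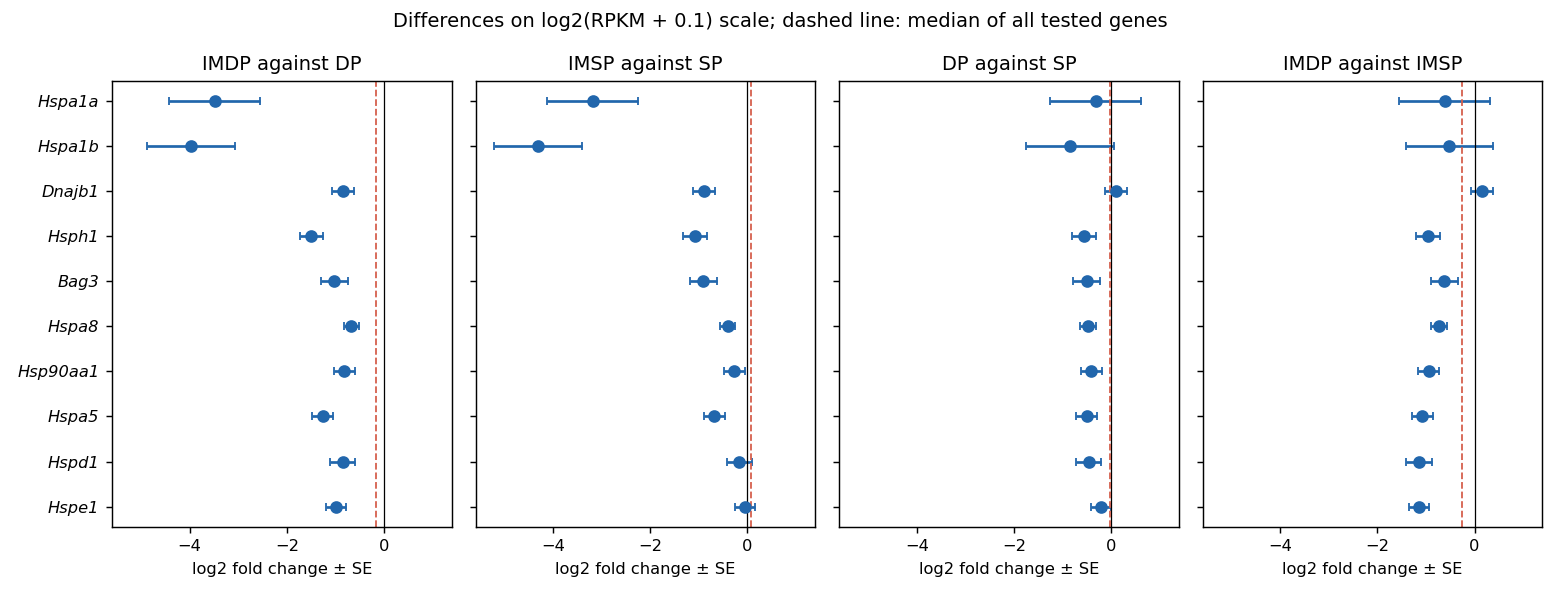
Log2 difference with SE (horizontal axes, log2(RPKM + 0.1) scale) of each of the 10 genes in 4 comparisons of 3 against 3 libraries, with the median of all tested genes as a dashed line. Hspa1a and Hspa1b lie beyond -3 in both treatment comparisons and between -0.84 and -0.31 in the population comparisons, and Hspd1 and Hspe1 lie near 0 in IMSP against SP cells.

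The rest of the chaperone network was taken as 111 genes in 9 lists, of which 97 passed the filter and were tested with limma. Hsf1, the gene of the heat shock factor, had 8.57 to 10.8 RPKM in the 12 libraries and its relative Hsf2 0.813 to 1.45, and neither passed in any comparison. In IMDP against DP cells Hsf1 changed by -0.11 (limma, adjusted p = 0.606) and in IMSP against SP cells by 0.01. Of the small heat shock proteins, 8 of 9 did not pass the filter. Hspb1, a cytosolic HSF1 target that encodes HSP27, had 4, 4 and 5 reads in DP, 0, 1 and 3 in SP and 0 in each of the 6 imatinib libraries, which allows up to 0.189 to 0.292 RPKM there. Its vehicle values reached 0.374 RPKM, so these libraries are too shallow for a fold change of Hspb1.

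In IMDP against DP cells 2 of the 97 network genes passed, both lower, beside 0.338% of all genes lower. Both belong to the unfolded protein response. Herpud1, an endoplasmic reticulum protein that serves degradation, stood at 28.1, 28.1 and 22.7 RPKM in DP and at 9.40, 13.7 and 10.7 in IMDP cells, a log2 change of -1.23 ± 0.19 (SE; limma, adjusted p = 0.0338). Ddit3, encoding the stress transcription factor CHOP, stood at 6.49, 8.67 and 5.18 in DP and at 2.95, 2.45 and 2.46 in IMDP cells, a change of -1.31 ± 0.21 (limma, adjusted p = 0.0379). Neither group overlapped. These calls were lost in IMDP against DP cells when libraries were scaled to the same median or sum, and without DP 1, DP 2, SP 1, IMDP 3 or IMSP 3, while 1 call was left without IMDP 2 and 9 network genes passed without IMDP 1. In IMSP against SP cells 0 of the 97 passed by limma or limma-voom, with 9 (and 8.39% of all genes) at an unadjusted p under 0.05, and Herpud1 (15.7, 18.8 and 15.1 against 29.9, 42.5 and 29.5 RPKM) and Ddit3 (2.21, 2.93 and 2.68 against 6.91, 4.77 and 6.16) did not overlap there either. Averaged over both populations, 3 network genes passed, all lower with imatinib, beside 0.606% of all genes lower. They were Herpud1 (-1.13 ± 0.13, limma, adjusted p = 0.00452), Ddit3 (-1.23 ± 0.15, adjusted p = 0.00452) and Dnaja1, a cytosolic J protein of HSP70 named after its values were seen (-0.65 ± 0.13, adjusted p = 0.0464). With the libraries scaled to the same sum, 6 network genes passed lower and 2 higher, beside 0.655% and 1.79% of all genes. Without IMSP 2 there were 5, all lower, beside 1.15% of all genes lower. The interaction passed in 0 network genes by limma and limma-voom, with 18 (and 9.30% of all genes) at an unadjusted p under 0.05.

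In IMDP against IMSP cells 51 network genes passed, 49 lower and 2 higher in IMDP, beside 23.3% of all genes lower and 2.37% higher. The median log2 difference of the 97 genes was -0.61 beside -0.25 over all genes. The split was 21 lower and 3 higher with the libraries scaled to the same median, and 14 lower and 4 higher with the same sum. Over all genes the shares were then 9.18% lower and 6.30% higher, and 6.14% lower and 9.56% higher. Without IMSP 1, 17 passed, without IMDP 2, 20, and without IMDP 3, 30, all lower. Of all genes 8.46%, 10.8% and 14.0% were lower in these fits. In DP against SP cells 0 network genes passed by limma or limma-voom, with 13 (and 13.2% of all genes) at an unadjusted p under 0.05. With neighbouring library numbers as a block 16 passed lower and 1 higher, beside 5.56% of all genes lower and 4.17% higher.

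By list, the endoplasmic reticulum genes had a median of -0.88 in IMDP against IMSP cells, with 15 of 24 lower and 1 higher. Each list count given here and below stands beside 23.3% of all genes lower and 2.37% higher. These counts and the named calls are from the fit without scaling, and most lower network calls ended with either scaling. The medians of the lists named next stayed negative under both scalings, except that of the J proteins, which was -0.41 and became 0.01 with the same sum. Sdf2l1, a cofactor of BiP, changed by -1.64 ± 0.46 (SE; limma, adjusted p = 0.0247), Calr, the lectin chaperone calreticulin, by -1.41 ± 0.37 (adjusted p = 0.0194) and Hsp90b1, the HSP90 of this compartment (GRP94), by -1.35 ± 0.33 (adjusted p = 0.014). Dnajb9, a J protein of BiP, was the only gene of the list that rose, by 0.57 ± 0.18 (limma, adjusted p = 0.0363), with 5.31, 5.91 and 6.27 RPKM in IMDP and 3.08, 4.48 and 4.26 in IMSP cells. Thus the BiP cofactors Sdf2l1 and Dnajb9 went in opposite directions.

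The TRiC chaperonin and its partner prefoldin, which fold actin and tubulin, had a median of -0.69. Of their genes 10 of 14 were lower and 0 higher, beside 23.3% and 2.37% of all genes. Tcp1 changed by -0.87 ± 0.16 (SE; limma, adjusted p = 0.00343), Cct7 by -0.80 ± 0.15 (adjusted p = 0.00469), both TRiC subunits, and the prefoldin subunit Pfdn6 by -0.97 ± 0.22 (adjusted p = 0.0111). Among HSP90 and its co-chaperones 7 of 15 were lower. These included Aarsd1 at -1.31 ± 0.23 (limma, adjusted p = 0.00325), Stip1, which bridges HSP70 and HSP90, at -0.99 ± 0.18 (adjusted p = 0.00347), Ahsa1, the activator of the HSP90 ATPase, at -0.93 ± 0.19 (adjusted p = 0.00617) and the constitutive HSP90 gene Hsp90ab1 at -0.61 ± 0.17 (adjusted p = 0.021). The ratio of Hsp90aa1 to Hsp90ab1 was 0.277 to 0.292 in the IMDP and 0.337 to 0.374 in the IMSP libraries, so that the inducible gene differed more than the constitutive gene.

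In the mitochondrial list 6 of 14 genes were lower in IMDP cells and 0 higher, beside 23.3% and 2.37% of all genes. Hspa9, the HSP70 of this compartment, changed by -0.80 ± 0.18 (SE; limma, adjusted p = 0.00935), its exchange factor Grpel1 by -0.91 ± 0.19 (adjusted p = 0.00802) and the protease Htra2 by -0.83 ± 0.22 (adjusted p = 0.018). Among cytosolic J proteins 6 of 13 tested were lower, led by Dnajc9 (-0.99 ± 0.17, limma, adjusted p = 0.00281), which also binds histones, Dnajc2 (-0.76, adjusted p = 0.0191), which acts at the ribosome, and Dnajc8 (-0.75, adjusted p = 0.0453). Dnajb2 rose by 1.00 ± 0.28 (limma, adjusted p = 0.0236), from 0.83, 1.26 and 0.529 RPKM in IMSP to 1.73, 1.94 and 1.61 in IMDP cells. Of the exchange factors and BAG genes 3 of 8 were lower. Their log2 changes were -1.02 ± 0.13 for Stub1 (limma, adjusted p = 0.000407), the ubiquitin ligase CHIP that marks HSP70 clients, -0.60 for Bag4 (adjusted p = 0.02) and -0.50 for Hspbp1 (adjusted p = 0.0346). Of the other HSP70 and HSP110 genes 2 of 5 tested were lower, Hspa4, an HSP110 (-0.53, limma, adjusted p = 0.0117), and Hspa14 (-0.50, adjusted p = 0.0289).

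**Figure D4:**
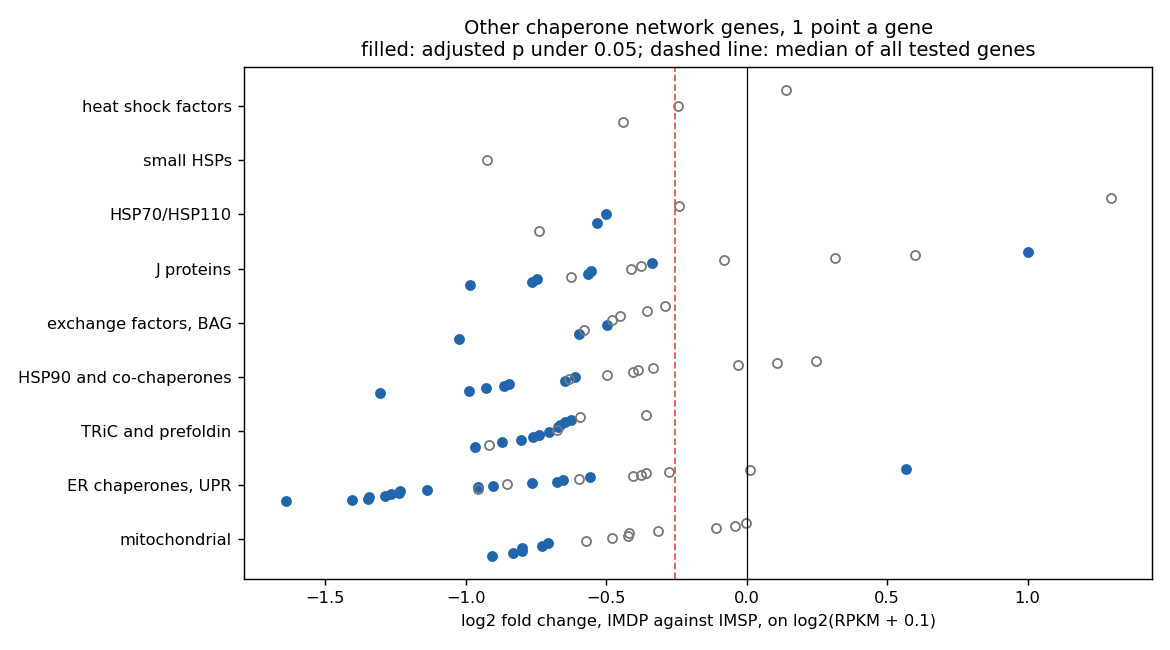
Log2 difference between IMDP and IMSP cells (horizontal axis, log2(RPKM + 0.1) scale) of the 97 tested network genes, 1 point a gene, in 9 lists. Filled points passed the limma test, and of the 51 that did only Dnajb2 and Dnajb9 lie to the right of 0. The dashed line is the median of all tested genes, -0.25.

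Immediate-early genes respond within minutes to signals and to handling of cells. Of 19 such genes all 19 had a negative log2 difference in IMDP against DP and in IMSP against SP cells, with medians of -1.30 and -1.11 beside -0.17 and 0.08 over all genes. The test passed 1 of them in IMDP against DP cells (Rhob, -1.35 ± 0.18, limma, adjusted p = 0.0268), beside 0.367% of all genes. This call ended with only the 2 groups compared and without IMDP 3, where 0 of all genes passed. In IMSP against SP cells 0 passed by limma or limma-voom, as did 0.0% of all genes. At an unadjusted p under 0.05 there were 13 of them and 8.39% of all genes. Their mean centred log2 level was -0.53 in SP 2, below 3 of the 6 imatinib libraries, while the mean of the 5 inducible chaperone genes was highest in SP 2, at 1.57. In IMSP 2 and IMDP 2 the mean of the inducible genes was 0.07 and -0.42, against -2.00 to -1.10 in the other imatinib libraries. The part of immediate-early signals or handling in the chaperone values was not tested.

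**Figure D5:**
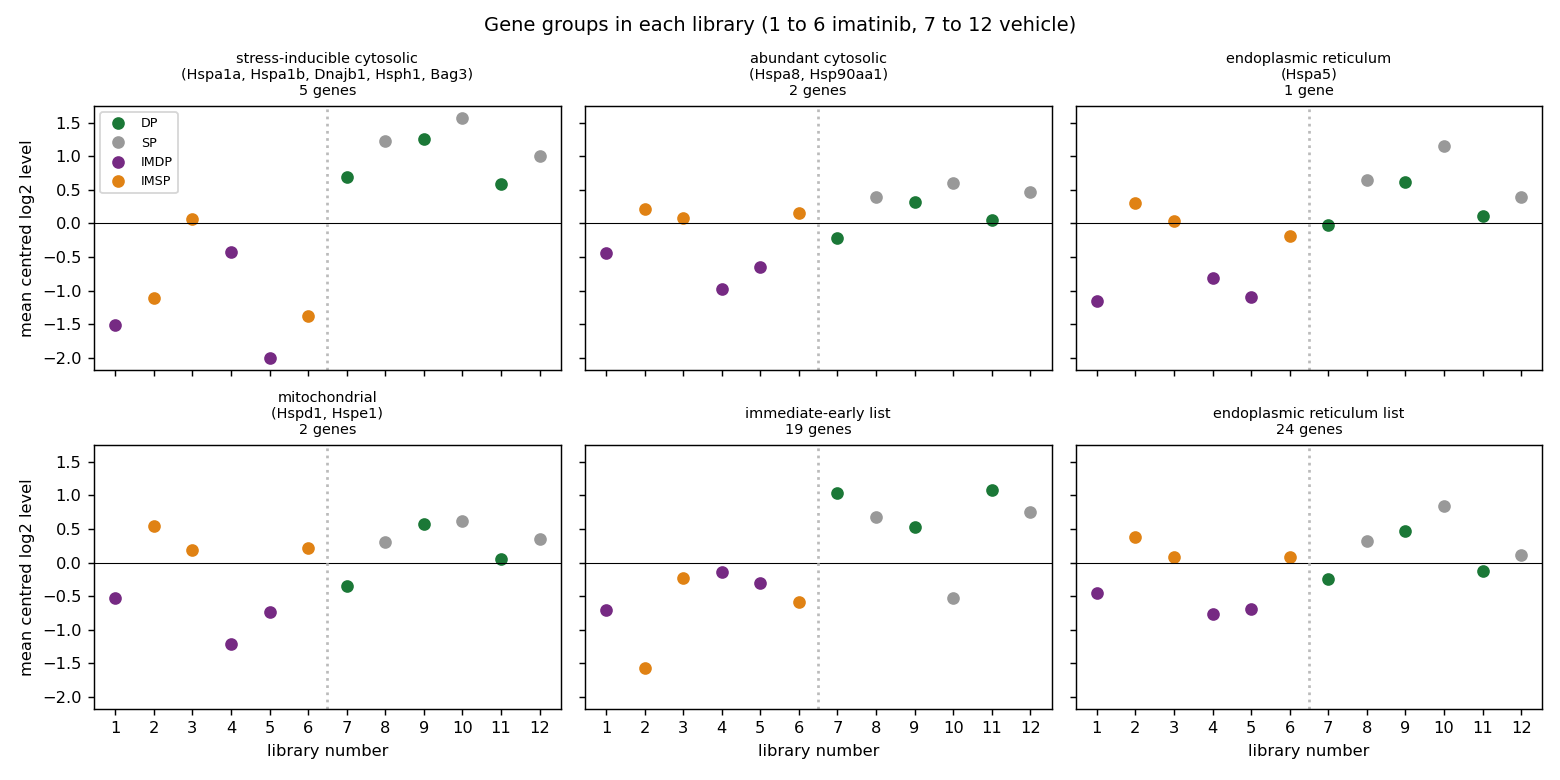
Mean centred log2 level (vertical axis; log2(RPKM + 0.1) minus the mean of the gene over 12 libraries, averaged over the genes named) of 6 gene groups by library number (horizontal axis), with imatinib to the left and vehicle to the right of the dotted line. The 5 inducible genes lie between 0.59 and 1.57 in vehicle and between -2.00 and 0.07 in imatinib libraries. The IMDP libraries lie below all others for Hspd1 with Hspe1, Hspa8 with Hsp90aa1, Hspa5 and the endoplasmic reticulum list.

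The 6 genes listed as LSK markers (Cd27, Cd34, Flt3, Gata2, Kit and Ly6a) were above 0 in every group, with a summed level of 78.5 to 168 RPKM. Cd34, Flt3 and Gata2 were not part of the sort. Markers of other cells are given by their range over the 3 libraries of a group. The 8 mast cell and basophil markers summed to 77.0 to 351 RPKM in DP, 14.2 to 44.9 in SP, 20.5 to 178 in IMDP and 6.77 to 25.7 in IMSP cells, with Tpsab1 at 0 in all libraries. The 6 macrophage markers summed to 3.41 to 10.9, 2.01 to 3.37, 9.37 to 11.5 and 3.05 to 8.58 RPKM in the same order, with C1qa, C1qb, C1qc and Cd5l at 0 in all SP and IMSP libraries. The 7 erythroid markers summed to 200 to 268, 54.2 to 148, 58.1 to 483 and 10.6 to 72.4 RPKM, and the 7 neutrophil markers to 45.6 to 1055, 284 to 2007, 49.9 to 204 and 370 to 1605 RPKM. The 6 lymphoid markers summed to at most 4.39 RPKM in any library. The ranges of vehicle and imatinib libraries of the same population overlapped for each of these lists but LSK markers in SP and IMSP cells, and the part of such cells in the chaperone values was not tested.

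Outside all lists, the 5 tested genes nearest to the mean centred profile of Hspa1a, Hspa1b, Dnajb1 and Hsph1 over the 12 libraries were Thy1, Arap3, Samd14, Gata1 and Atf5. Their root mean square distance from that profile was 0.62 to 0.71 on the log2 scale, against 0.77 to 1.03 for the 4 genes that make it and a median of 1.37 over all tested genes. Arap3, which regulates small GTPases, had 5.85 to 8.64 RPKM in vehicle libraries and 6.47 in IMDP 2, 4.90 in IMSP 2 and 1.14 to 2.08 in the other 4 imatinib libraries. Gata1, the erythroid and mast cell transcription factor, had 2.77 to 7.37 RPKM in vehicle libraries, 3.26 in IMDP 2, 5.39 in IMSP 2 and 0.669 to 1.57 in the other imatinib libraries. Since the genes were chosen for their likeness to that profile, the high values in IMDP 2 and IMSP 2 are part of the choice. Thy1 had means of 9.06, 9.24, 3.08 and 3.80 RPKM in DP, SP, IMDP and IMSP cells, and Atf5, a stress transcription factor, 1.41, 1.66, 0.563 and 0.593.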

How the data were processed

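RNA of 100 sorted cells per library was sequenced in 12 libraries. The authors mapped the reads to GRCm38 (mm10), with mapping software that the sources name differently and no stated strand setting, and deposited one RPKM value per feature and library, and edgeR is named in the submitters' processing notes. The members and all lists were chosen with earlier results of these data known. Numbered copies of a gene were summed. The values were whole multiples of 1 read (within 0.02 reads) for 17732 of the 17735 features above 0, which gave the reads and totals. The 10072 genes with at least 1 RPKM in 3 libraries entered the limma test (version 3.58.1, R 4.3.3), fitted to log2(RPKM + 0.1) as 4 group means with a variance trend and Benjamini-Hochberg adjustment over all tested genes. In simulated data with 3 libraries a group, 89.5% of 200 genes changed 4-fold were called between IMDP and DP cells, with 3.24% false calls. Noise was drawn there separately for each gene and library with a capped spread. These rates therefore do not hold for the real libraries, which deviate together as given below. Named genes are the 10 members, Hsf1, Hsf2, Hspb1, Hsp90ab1, Hsp90b1 and Hspa9, up to 3 rises and 3 falls per network list past the threshold between populations, every network gene past it between treatments (up to 3 a direction), and the 5 nearest profiles. Alternatives changed pseudocount, filter, scaling, groups fitted, copies, block, the test (voom) or the libraries. Depth intervals cover counting error only. Same-numbered IMDP and IMSP libraries, which are also neighbours in library number, deviated together (r = 0.43, 0.65 and 0.46), and neighbouring DP and SP libraries did too (r = 0.51, 0.52 and 0.50). Human samples and normal stem cells were not analysed here. Tables were handled in Python 3.11.15 with pandas 2.3.3 and numpy 2.4.6, and plots drawn with matplotlib 3.10.9.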

Additional observations from a re-analysis of the deposited data

How the results depend on the processing

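The depth of 11.4 M to 20.6 M reads limits Hspa1a, Hspb1 and other genes of a few reads, and 3 libraries a group limit every test. Of the counts of members called, that in IMDP against DP cells (2) became 1 without a filter, 5 with a filter of 5 RPKM and 0 with the same median, the same sum, only the 2 groups compared or voom, and 0 to 4 with a library left out, with none without DP 1, DP 2, SP 1, IMDP 3, IMSP 1 or IMSP 3, 1 without SP 3, IMDP 2 or IMSP 2 and 4 without IMDP 1. The share of all genes called moved as well, from 0.367% to 0.197% without a filter and 2.95% with a filter of 5 RPKM. It was 0.0199% with the same median, 0.139% with the same sum, 0.0% with only the 2 groups compared and 0.0795% with voom. With a library left out it was 0.0% to 1.88%, the highest without IMDP 1. The count of members in IMDP against IMSP cells (6) was 3 to 6 with a library left out, with 3 without IMSP 1, and 3 without library numbers 3 and 4, where IMSP against SP cells had 2 (Hspa1a and Hspa1b) in place of 0. Over all genes the share in IMDP against IMSP cells was 25.6%, 8.96% without IMSP 1 and 10.1% without library numbers 3 and 4. In IMSP against SP cells it was then 0.0894%. In DP against SP cells the count of members was 4 with the library-number block, beside 9.73% of all genes, and 0 with each library left out. Averaged over populations the count of members was 6, but 3 without a filter and 1 to 5 with a library left out. Over all genes the share was 0.854%, 0.274% without a filter and 0.119% to 1.42% with a library left out.

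Network genes called in IMDP against IMSP cells (51) were 24 with the same median, 18 with the same sum, 20 without library numbers 3 and 4 and 17 to 60 with a library left out (17 without IMSP 1, 20 without IMDP 2, 30 without IMDP 3). In IMDP against DP cells (2) there were 5 with the filter of 5 RPKM, 0 with the same median, the same sum or only the 2 groups compared, 1 with voom, 1 without library numbers 3 and 4, and 0 to 9 with a library left out, with 9 without IMDP 1. In DP against SP cells there were 17 with the library-number block and 1 without DP 1, against 0. Averaged over populations (3) there were 6 with the filter of 5 RPKM, 7 with the same median, 8 with the same sum or without library numbers 3 and 4, and 2 to 5 with a library left out. The cause was not tested. IMSP against SP cells and the interaction kept 0 network genes under all alternatives. The share of all genes called moved under these settings too. In IMDP against IMSP cells it was 25.6%, 15.5% with the same median, 15.7% with the same sum and 10.1% without library numbers 3 and 4. Averaged over populations it was 0.854%, 1.82% with the filter of 5 RPKM, 1.61% with the same median and 2.44% with the same sum. Without library numbers 3 and 4 the averaged share was 3.66%. Of the members and network genes called, Dnajc7 alone changed sign under an alternative, from -0.34 to 0.08 in IMDP against IMSP cells with the same sum, where calls over all genes turned from 239 higher and 2342 lower to 963 higher and 618 lower. Of the tests of named network genes under alternatives, 118 fell below the threshold and 20 rose past it, and 3603 stayed on their side.

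With the replicate block, members called were 2 in IMDP against DP, 6 in IMDP against IMSP, 0 in DP against SP and 0 in IMSP against SP cells, and it moved no count by over 1.5 times. Replicate numbers do not pair DP and SP libraries, whose same-numbered libraries deviated apart (r = -0.19, -0.30 and -0.10).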
